A study of Mus musculus with 6 samples.

Results

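The 6 distal-less homeobox genes of the mouse, Dlx1 to Dlx6, were followed in the nasomaxillary complex, the bone, cartilage and soft tissue of the nose and upper jaw, of E17.5 embryos. Members were taken by gene symbol, and all 6 were found among the 24346 symbols measured. The mutant group was 3 libraries of genotype Wnt1-Cre:Pth1r f/f, in which floxed Pth1r, the gene of the receptor shared by parathyroid hormone and its related protein, is combined with a Cre transgene that recombines in neural crest derivatives. The control group was 3 libraries of genotype Pth1r f/f with no Cre, so both groups carried the floxed gene, and what Cre itself does and what losing Pth1r does cannot be told apart. Both groups were E17.5 and untreated. The labels give no strain and no link between libraries and embryos, so the spread behind each p-value is that between these samples and may be technical.

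Dlx genes encode transcription factors that bind DNA through a homeodomain and are expressed in the neural crest mesenchyme of the facial primordia, in the forebrain, in surface epithelia and in developing bone. They lie in linked pairs that arose by duplication, and their proteins fall into a Dlx2, Dlx3 and Dlx5 clade and a Dlx1, Dlx4 and Dlx6 clade, so that each pair holds one gene of each clade. In the early jaw, Dlx1 and Dlx2 act in both upper and lower primordia, whereas Dlx5 and Dlx6, switched on by endothelin signalling, give the lower jaw its identity. Later, Dlx5 and Dlx3 act in osteoblasts, Dlx3 in hair, tooth and epidermis, and Dlx1 and Dlx2 in inhibitory neurons.

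The annotation of GRCm38, the same coordinates as the mm10 build named for these files, placed the pairs tail to tail, with the 3' ends facing each other. Dlx1 (chr2:71528113-71533981, plus strand) and Dlx2 (chr2:71543408-71546754, minus strand) are 9426 bases apart. Dlx3 (chr11:95120119-95125296, plus strand) and Dlx4 (chr11:95140447-95146263, minus strand) are 15150 bases apart, and Dlx6 (chr6:6863334-6868568, plus strand) and Dlx5 (chr6:6877805-6882085, minus strand) are 9236 bases apart. In each pair an annotated RNA on the opposite strand overlaps the gene of the Dlx1, Dlx4 and Dlx6 clade and not its partner. Dlx1as spans all of Dlx1, Dlx4os overlaps the 5' end of Dlx4, and Dlx6os1 and Dlx6os2 overlap Dlx6. Exons of Dlx1as share 335 bases with exons of Dlx1, which is 6.21% of the exonic bases of Dlx1 and 20.6% of those of Dlx1as. Of the exonic bases of Dlx4, 2.42% were shared with Dlx4os. Of those of Dlx6, 4.38% were shared with Dlx6os2 and 0% with Dlx6os1. The kit was stranded but the strand setting of the counting is not given, so over those shared bases the sense and antisense values may hold each other's fragments.

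**Figure D1:**
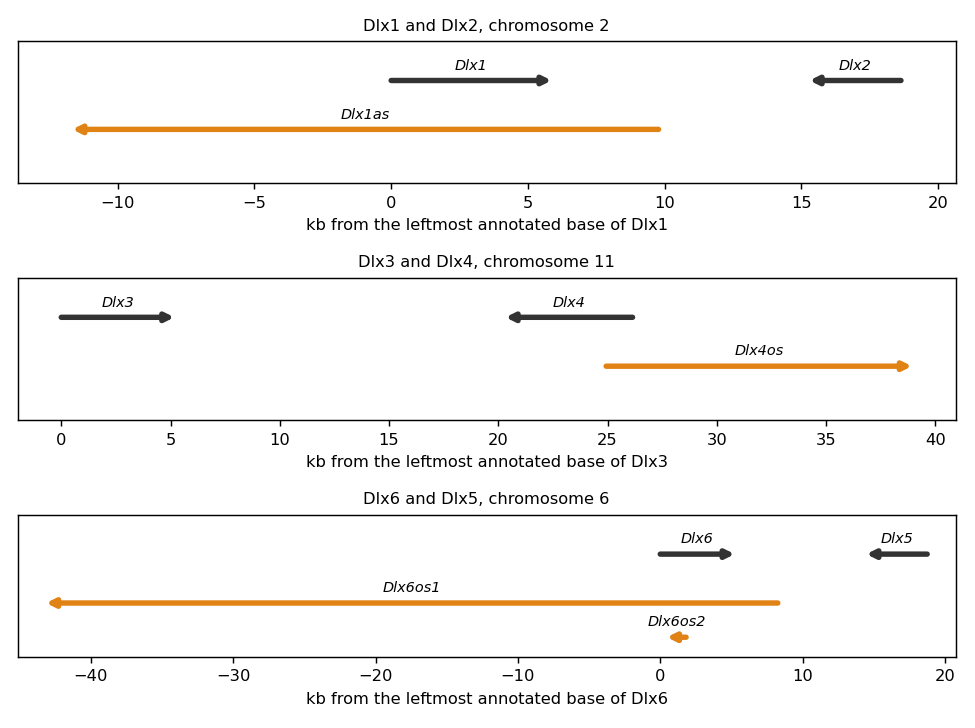
Map of the 3 Dlx pairs, with the distance in kilobases from the leftmost annotated base of the left gene on the x axis; arrows point in the direction of transcription, Dlx genes are black and antisense genes orange. In each pair the Dlx genes point towards each other, and the orange genes overlap Dlx1, Dlx4 and Dlx6.

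The homeobox, the 180 bases that encode the homeodomain, is the part the 6 genes share, and it is shown because it is where reads of one member could be taken for another. It was read from the longest reading frame of the GENCODE transcripts of each gene, 5' to 3', and capitals mark bases that differ from Dlx5 at the same position.
Dlx5: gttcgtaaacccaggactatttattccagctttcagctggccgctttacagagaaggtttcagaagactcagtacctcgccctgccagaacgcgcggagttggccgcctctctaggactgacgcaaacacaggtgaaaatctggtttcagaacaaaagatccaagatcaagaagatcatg
Dlx2: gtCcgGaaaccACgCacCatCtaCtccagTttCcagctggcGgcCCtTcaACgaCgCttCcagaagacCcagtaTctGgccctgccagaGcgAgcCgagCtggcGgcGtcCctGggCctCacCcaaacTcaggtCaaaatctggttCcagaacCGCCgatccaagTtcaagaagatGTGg
Dlx3: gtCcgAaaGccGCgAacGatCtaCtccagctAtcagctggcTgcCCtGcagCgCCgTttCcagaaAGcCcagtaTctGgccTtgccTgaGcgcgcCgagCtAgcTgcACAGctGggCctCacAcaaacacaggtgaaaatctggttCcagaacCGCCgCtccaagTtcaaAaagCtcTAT
Dlx1: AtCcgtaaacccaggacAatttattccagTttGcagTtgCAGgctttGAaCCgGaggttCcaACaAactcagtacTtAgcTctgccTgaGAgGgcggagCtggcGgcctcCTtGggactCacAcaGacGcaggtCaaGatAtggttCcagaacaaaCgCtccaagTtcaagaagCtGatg
Dlx6: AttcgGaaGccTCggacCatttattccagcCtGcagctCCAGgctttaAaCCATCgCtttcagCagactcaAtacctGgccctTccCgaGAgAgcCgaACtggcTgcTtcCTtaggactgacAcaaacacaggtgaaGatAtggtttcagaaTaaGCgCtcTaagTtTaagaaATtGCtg
Dlx4: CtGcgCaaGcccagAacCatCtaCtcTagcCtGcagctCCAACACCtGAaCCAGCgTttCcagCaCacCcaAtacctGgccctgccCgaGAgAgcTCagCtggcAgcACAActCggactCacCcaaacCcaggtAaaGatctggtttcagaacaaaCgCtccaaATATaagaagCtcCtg
Differences from Dlx5 numbered 44 bases in Dlx2, 51 in Dlx3, 43 in Dlx1, 48 in Dlx6 and 59 in Dlx4. The closest homeoboxes were those of Dlx2 and Dlx3, with 81.7% of bases identical, and the most distant those of Dlx3 and Dlx6, with 66.1%. Linked partners lay inside that range, at 73.9% for Dlx1 and Dlx2, 71.7% for Dlx3 and Dlx4 and 73.3% for Dlx5 and Dlx6. Over the whole transcripts the longest identical run between any 2 members was 23 bases. The read length is not given in the sources used here.

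Dlx5, a regulator of osteoblast and jaw development, had the highest level in all 6 libraries. It measured 40.7, 30.6 and 33.5 FPKM (fragments counted per kilobase of transcript, relative to the size of the library) in mutant replicates 1 to 3, against 41.5, 36.5 and 43.5 FPKM in control replicates 1 to 3. Mutant replicate 1 lay inside the control range, and mutant replicates 2 and 3 lay below it. Across all 6 libraries the mean of Dlx5 was above that of 90.0% of the 24346 symbols. Dlx5 carried between 43.6% and 45.7% of the summed FPKM of the 6 members in every library.

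Dlx3, which acts in hair, tooth and bone, was second in every library. It measured 22.2, 17.4 and 19.01 FPKM in mutant replicates 1 to 3, against 24.8, 22.6 and 24.6 FPKM in control replicates 1 to 3. All mutant values lay below all control values, with a gap of less than 1 FPKM between mutant replicate 1 and control replicate 2. Dlx6, the linked partner of Dlx5, came next in every library, with 15.5, 13.5 and 14.5 FPKM in the mutant replicates and 14.9, 17.0 and 19.2 FPKM in the control replicates. Control replicate 1 fell inside the mutant range. The ranges of Dlx3 and Dlx6 over the 6 libraries overlapped, although Dlx3 was above Dlx6 within each library.

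The other 3 members were low. Dlx2, a gene of early facial mesenchyme and forebrain, measured 5.59, 2.89 and 4.62 FPKM in the mutant replicates and 4.31, 3.05 and 3.24 FPKM in the control replicates, so the mutant libraries held both its highest and its lowest value. Dlx4, known from placenta and early jaw primordia, measured 4.19, 1.69 and 2.60 FPKM in the mutant replicates and 3.80, 3.19 and 3.26 FPKM in the control replicates, again with both extremes in mutant libraries. Dlx1, the partner of Dlx2, measured 2.01, 1.998 and 1.22 FPKM in the mutant replicates and 1.61, 1.28 and 1.54 FPKM in the control replicates. The order of these 3 was not fixed: Dlx4 was above Dlx2 in control replicates 2 and 3, and Dlx1 was above Dlx4 in mutant replicate 2. In each of the 3 linked pairs the member of the Dlx2, Dlx3 and Dlx5 clade was the higher one in all 6 libraries.

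**Figure D2:**
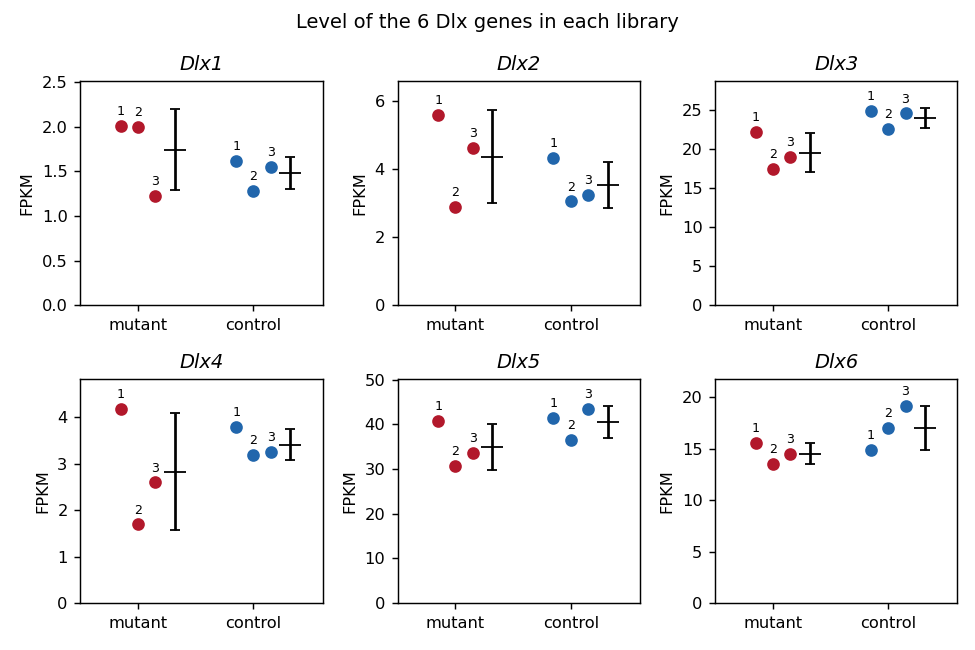
FPKM of each Dlx gene in the mutant libraries (red) and the control libraries (blue), numbered by replicate, with the mean and SD of each group in black; every y axis starts at 0 and has its own scale. Dlx3 is the 1 gene whose mutant values, 22.2 at most, all lie below its control values, 22.6 at least.

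Ratios within pairs, a description with no test, differed in how steady they were. Dlx5 stood at 2.62, 2.27 and 2.31 times Dlx6 in the mutant replicates and 2.78, 2.14 and 2.27 times in the control replicates. Dlx3 stood at 5.31, 10.3 and 7.31 times Dlx4 in the mutant replicates and 6.54, 7.08 and 7.54 times in the control replicates. Dlx1 stood at 0.359, 0.692 and 0.264 times Dlx2 in the mutant replicates and 0.374, 0.420 and 0.476 times in the control replicates. The ratios of the low pairs spread over a wider range in mutant than in control libraries, and the Dlx5 to Dlx6 ratio over a narrower one. Across pairs, Dlx5 stood to Dlx3, which is on another chromosome, at 1.83, 1.76 and 1.76 in the mutant replicates and 1.67, 1.62 and 1.77 in the control replicates.

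Depth limits the low members. The spacing of low FPKM values gave about 8790000 to 13400000 fragments per mutant library and 12300000 to 14500000 per control library, with mutant replicate 3 the shallowest. With the annotated exon lengths, that put between 667 and 1232 fragments behind a Dlx5 value, between 435 and 855 behind Dlx3 and between 303 and 588 behind Dlx6. The estimates were 97 to 213 fragments for Dlx2, 65 to 183 for Dlx4 and 58 to 145 for Dlx1, for which counting error alone comes to between 6.85% and 13.1% of the value. These figures are estimates from annotated lengths and not counts, and they cover counting error only.

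The comparison asked whether Dlx genes differ between mutant and control tissue. None of the 6 passed the threshold, a limma adjusted p under 0.05 over the 14766 genes whose mean reached 1 FPKM, as all 6 members did. Over all tested genes that threshold called 39 (0.264%), of which 30 were lower (0.203%) and 9 higher (0.061%) in mutant. At an unadjusted p under 0.05, lower in mutant, there was 1 of 6 members, Dlx3, beside 5.96% of all tested genes, and none was at that level in the other direction, beside 5.35%. Log2 changes were negative for 4 members and positive for 2, with a median of -0.21, and 50.8% of all tested genes were negative, with a median of -0.0020. In a fit with sex as covariate, added after seeing the data, the changes of Dlx1, Dlx2, Dlx4 and Dlx5 were positive, at 0.28, 0.55, 0.24 and 0.010, and those of Dlx3 and Dlx6 negative, at -0.10 and -0.12. As no control was male, that fit compares mutant replicate 1 alone, the only female mutant, with the controls. Changes are mutant minus control of log2(FPKM + 1), a scale that understates those of Dlx1, Dlx2 and Dlx4.

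Dlx3 averaged 19.6 ± 2.46 FPKM in mutant and 24.0 ± 1.23 FPKM in control (SD, n = 3 each). The log2 change of Dlx3 was -0.29 ± 0.090 (SE), with a 95% interval from -0.50 to -0.076, a limma unadjusted p of 0.0146 and an adjusted p of 0.323. Groups that do not overlap, with mutant lower, were found for 9.16% of all tested genes. Without mutant replicate 2 the Dlx3 change was -0.21, and without mutant replicate 1 it was -0.38 (limma adjusted p = 0.242, the lowest of 18 alternatives for this gene). With sex as covariate, which leaves mutant replicate 1 alone against the controls, it was -0.10.

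Dlx5 averaged 34.9 ± 5.19 FPKM in mutant and 40.5 ± 3.62 FPKM in control (SD, n = 3 each), a log2 change of -0.21 ± 0.11 (SE) with a limma adjusted p of 0.523. Its 95% interval ran from -0.47 to 0.047. Dlx6 averaged 14.5 ± 1.02 FPKM in mutant and 17.0 ± 2.15 FPKM in control, a log2 change of -0.21 ± 0.096 with a limma adjusted p of 0.462 and an interval from -0.44 to 0.012. Both intervals included 0, and their lower bounds were near that of Dlx3.

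Dlx4 averaged 2.83 ± 1.26 FPKM in mutant and 3.41 ± 0.334 FPKM in control, a log2 change of -0.26 ± 0.22 (SE) with a limma adjusted p of 0.725. Dlx2 averaged 4.37 ± 1.37 FPKM in mutant and 3.54 ± 0.682 FPKM in control, with a change of 0.22 ± 0.20 and a limma adjusted p of 0.745. Dlx1 averaged 1.74 ± 0.451 FPKM in mutant and 1.48 ± 0.175 FPKM in control, with a change of 0.13 ± 0.15 and a limma adjusted p of 0.797. The 95% intervals ran from -0.78 to 0.27 for Dlx4, from -0.26 to 0.69 for Dlx2 and from -0.22 to 0.49 for Dlx1, so they were wider than those of the abundant members.

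The mutant libraries differed among themselves. Dlx2, Dlx3, Dlx4, Dlx5 and Dlx6, 5 of the 6 members, had their lowest value in mutant replicate 2. The share of all tested genes lowest in that library was not computed. Mutant replicate 1 held the highest value of Dlx1, Dlx2 and Dlx4. Mutant replicate 1 also differed from the other mutants in sex. Xist, the RNA of the inactive X chromosome, measured 77.1 FPKM in mutant replicate 1 and 0.0263 and 0.0295 FPKM in mutant replicates 2 and 3, against 74.1 to 74.4 FPKM in the 3 controls. In the female libraries alone, 1 mutant against 3 controls, an alternative chosen after seeing the data, the log2 changes of all 6 members equalled those of the fit with sex as covariate. That was fixed in advance, because no control was male and both fits set mutant replicate 1 alone against the 3 controls. With both male mutants left out, the changes of Dlx4 and Dlx5 were thus not negative, at 0.24 and 0.010. With mutant replicate 2 alone left out, they were -0.028 and -0.13. Sex and genotype cannot be told apart in the male mutants because no control was male.

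**Figure D3:**
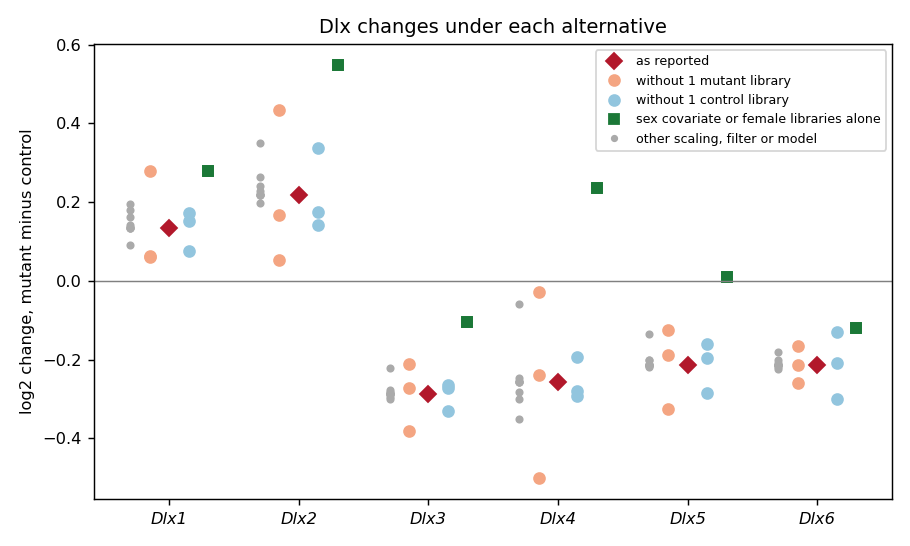
Log2 change, mutant minus control, of each Dlx gene as reported (red diamonds) and under each alternative, with libraries left out in turn (circles), sex taken into account (green squares) and other settings (grey dots). The squares lie above the diamonds for all 6 genes, and cross 0 for Dlx4 and Dlx5. Each square compares mutant replicate 1 alone with the controls.

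Markers of other cell types also differed between libraries. Skeletal muscle markers, 5 genes, summed to 314, 626 and 234 FPKM in mutant replicates 1 to 3. In control replicates 1 to 3 they summed to 266, 154 and 248 FPKM. Their sum was highest in mutant replicate 2, where most Dlx genes were lowest. It was lowest in control replicate 2, where every Dlx gene except Dlx6 had its lowest control value. Without mutant replicate 2 the change of Dlx4 was -0.028, that of Dlx5 -0.13, that of Dlx6 -0.17 and that of Dlx2 0.43. Osteoblast markers, 7 genes, summed to 6083, 5192 and 5939 FPKM in the mutant replicates and 7838, 5783 and 8012 FPKM in the control replicates. The sum was lowest in mutant replicate 2 and then in control replicate 2. It was mostly Col1a1, which averaged 3871 FPKM in mutant and 4847 FPKM in control. All 7 had a lower mean in mutant, beside 50.8% of all tested genes with a negative change. The groups did not overlap, with mutant lower, for 1 of them, Bglap, beside 9.16% of all tested genes. Phex, a gene of osteocytes outside these 7, averaged 11.0 FPKM in mutant and 8.30 FPKM in control. The part of these muscle and osteoblast markers in the Dlx values was not tested. In such bulk tissue fewer cells of a type and less RNA per cell cannot be told apart.

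Other tissues were present too. Epidermal markers, 6 genes, summed to 1663, 1640 and 1534 FPKM in the mutant replicates and 1371, 916 and 464 FPKM in the control replicates, higher in every mutant library than in any control. Enamel and dentine markers, 4 genes, summed to 18.3, 14.4 and 11.98 FPKM in the mutant replicates and 120, 133 and 3.81 FPKM in the control replicates, lowest in control replicate 3. Olfactory epithelium markers, 6 genes, lay between 157 and 164 FPKM in mutant and between 146 and 174 FPKM in control. Cartilage markers, 4 genes, summed to 234, 201 and 386 FPKM in the mutant replicates and 1019, 893 and 1103 FPKM in the control replicates. Of the inhibitory neuron markers, which in the forebrain go with Dlx1 and Dlx2, 5 of 6 had a mean under 1 FPKM, and Slc32a1, the vesicular transporter of GABA, was at 0 in 3 libraries. Their sum of 6.52 to 10.01 FPKM in mutant and 8.88 to 11.9 FPKM in control was mostly Sp8. The part of these tissues in the Dlx values was not tested.

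The antisense genes were read in the same fit. Dlx1as measured 2.42, 2.35 and 3.48 FPKM in the mutant replicates and 1.604, 1.94 and 1.83 FPKM in the control replicates, every mutant value above every control value, as for 7.85% of all tested genes in that direction. The change was 0.42 ± 0.14 (SE) on the log2 scale, with a limma unadjusted p of 0.0178 and an adjusted p of 0.335. Its level relative to Dlx1 was 1.21, 1.18 and 2.85 in the mutant replicates and 0.995, 1.51 and 1.18 in the control replicates, so mutant replicate 3, the shallowest library, held both the highest Dlx1as and the lowest Dlx1. About 34 to 53 fragments stood behind a Dlx1as value. Without mutant replicate 3 the Dlx1as change was 0.28.

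Dlx6os1, a long RNA known in the forebrain to act on Dlx5 and Dlx6, measured 6.46, 3.62 and 7.48 FPKM in the mutant replicates and 5.20, 6.54 and 5.13 FPKM in the control replicates, with the control values inside the mutant range. On the log2 scale it changed by 0.010 ± 0.22 (SE; limma adjusted p = 0.994). Dlx4os, listed under its older symbol A730090H04Rik, measured 2.98, 2.47 and 3.75 FPKM in the mutant replicates and 4.02, 3.49 and 3.15 FPKM in the control replicates, a change of -0.17 ± 0.14 with a limma adjusted p of 0.696. Dlx6os2 averaged 0.391 FPKM in mutant and 0.528 FPKM in control, under the filter, and was not tested.

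**Figure D4:**
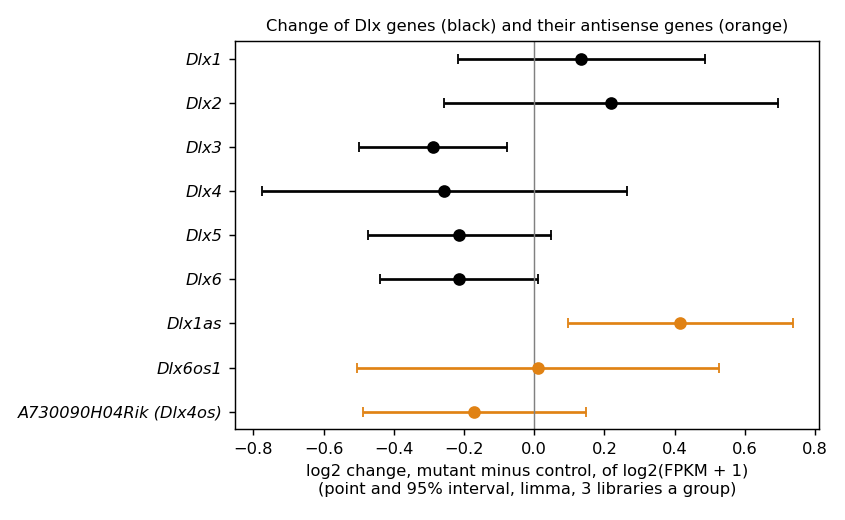
Log2 change, mutant minus control, of the 6 Dlx genes (black) and the 3 tested antisense genes (orange), with 95% intervals from limma on 3 libraries a group. The intervals of Dlx3, from -0.50 to -0.076, and of Dlx1as, above 0, leave out 0 before adjustment over all genes, and neither passes after it.

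One start site of Dlx6os1 lies between Dlx6 and Dlx5, and its window is shown because it holds a core sequence that Dlx proteins bind in vitro. The window, from 250 bases before to 50 bases after the start on the minus strand, is chr6:6869484-6869783 (RefSeq, GRCm38.p6), and capitals mark TAATTA, which reads the same on both strands.
Dlx6os1: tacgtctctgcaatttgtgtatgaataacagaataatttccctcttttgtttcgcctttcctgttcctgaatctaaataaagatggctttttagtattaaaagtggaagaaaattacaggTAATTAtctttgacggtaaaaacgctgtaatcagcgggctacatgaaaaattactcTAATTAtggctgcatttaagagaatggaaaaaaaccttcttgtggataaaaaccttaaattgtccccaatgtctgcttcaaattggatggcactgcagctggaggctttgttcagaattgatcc
It held 2 matches, and the window of another start of the same gene held 1. At least 1 match was found in 5.29% of 32851 such windows of all genes, and at least 2 in 0.49%. The windows of Dlx1, Dlx2, Dlx6os2 and Dlx4os held 0 matches. Of the 6 members, Dlx1 and Dlx2 were matched in the table of windows, and Dlx3, Dlx4, Dlx5 and Dlx6 were not.

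The nearest tested genes around the pairs, from 2.92 kilobases (Metap1d) to 285 kilobases (Shfm1) away, gave no call. The nearest tested gene was taken on each side of each pair, and the log2 changes were -0.067 for Metap1d and 0.14 for Itga6 around Dlx1 and Dlx2, 0.12 for Itga3 and -0.063 for Kat7 around Dlx3 and Dlx4, and -0.095 for Shfm1 and -0.093 for Sdhaf3 around Dlx6 and Dlx5. Their limma adjusted p ran from 0.509 to 0.803. Shfm1, which encodes a small proteasome subunit, lay at 364.8 FPKM in control, far above Dlx5 on the same scale.

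Across the 6 libraries, the members whose patterns lay closest were Dlx3 and Dlx5, with a root mean square difference of 0.057 between their log2 deviations from their own means. That of the linked genes Dlx5 and Dlx6 was 0.13, of Dlx3 and Dlx4 0.18 and of Dlx1 and Dlx2 0.31. Among all tested genes, the nearest to Dlx5 were Dnttip1 (0.017) and Tha1 (0.034), to Dlx3 Tha1 (0.028) and Vit (0.047), and to Dlx6 Uxt (0.022) and Ica1 (0.027). The nearest to Dlx1 were 1110008P14Rik (0.040) and Adamts12 (0.043), to Dlx2 Smim24 (0.081) and Gcn1l1 (0.097), and to Dlx4 Upk3bl (0.11) and Rps27 (0.12). Within a distance of 0.1 there were 131 genes for Dlx5, 205 for Dlx3, 354 for Dlx6 and 195 for Dlx1, but 3 for Dlx2 and 0 for Dlx4, whose own deviations were larger. With 6 libraries and 14766 genes, these are descriptions of likeness and no more.

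Genes that work around the Dlx family were described by list, beside a median of -0.0020 over all tested genes. Of all tested genes, 0.264% were called and 50.8% had a negative change. Of 7 genes of the endothelin signal upstream of Dlx5 and Dlx6, none was called, 5 changes were positive and the median was 0.046. Mef2c, a transcription factor that relays the signal, measured 22.6, 25.6 and 23.1 FPKM in the mutant replicates and 20.5, 17.7 and 18.5 FPKM in the control replicates, a log2 change of 0.32 with a limma adjusted p of 0.211. Edn1, the ligand endothelin 1, averaged 1.98 FPKM in mutant and 1.49 FPKM in control, with a change of 0.27 and a limma adjusted p of 0.536.

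Of 15 jaw and face transcription factors linked to Dlx genes, 11 were tested, none was called, 9 changes were negative and the median was -0.11. Gsc, a homeobox gene that in the early arch depends on Dlx5 and Dlx6, measured 7.15, 6.55 and 9.36 FPKM in the mutant replicates and 13.5, 12.4 and 13.2 FPKM in the control replicates. The groups did not overlap, and the log2 change of -0.71 ± 0.12 (SE) had a limma adjusted p of 0.0910. Without mutant replicate 3 the Gsc change was -0.84, with a limma adjusted p of 0.0102. Barx1, a homeobox gene of oral and dental mesenchyme, measured 9.45, 5.49 and 9.65 FPKM in the mutant replicates and 13.5, 11.96 and 11.99 FPKM in the control replicates, with a change of -0.58 and a limma adjusted p of 0.325. Mutant replicate 2 was the lowest library for both, as for most Dlx genes. The 4 genes that did not reach 1 FPKM, chosen for naming after their values were seen, were Hand1, Hand2, Gbx2 and Nkx3-2. Hand2, a target of the endothelin signal in the lower jaw, was listed at 0 in each mutant replicate and in control replicate 2, and at 0.0347 and 0.185 FPKM in control replicates 1 and 3.

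Of 10 osteoblast genes linked to Dlx3 and Dlx5, none was called, 9 changes were negative and the median was -0.22. Bglap, which encodes osteocalcin and is uncertain here because of its near-identical copy Bglap2, averaged 5.61 ± 1.74 FPKM in mutant and 17.6 ± 9.26 FPKM in control (limma adjusted p = 0.233), and Phex, an endopeptidase gene of osteocytes and the 1 member with a positive change, averaged 11.0 ± 1.07 FPKM in mutant and 8.30 ± 1.64 FPKM in control (limma adjusted p = 0.363). Runx2, a master regulator of osteoblasts named after its values were seen, had a change of -0.14. Of 13 epidermis and hair genes linked to Dlx3, 11 were tested, none was called, 10 changes were positive and the median was 0.77. In that list Krt5, a basal keratin, averaged 285 FPKM in mutant and 172 FPKM in control (limma adjusted p = 0.265), and Krt71, a hair follicle keratin, 2.89 FPKM in mutant and 0.903 FPKM in control (limma adjusted p = 0.271).

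Of 12 inhibitory neuron genes linked to Dlx1 and Dlx2, 5 were tested and none was called, with 3 negative and 2 positive changes and a median of -0.059. Npy, a neuropeptide gene, averaged 6.54 FPKM in mutant and 3.88 FPKM in control (limma adjusted p = 0.486). It measured 4.77, 10.1 and 4.74 FPKM in the mutant replicates and 4.88, 3.82 and 2.94 FPKM in the control replicates, so mutant replicate 2 alone lay above all controls. None of 10 olfactory markers was called (median -0.11), Neurog1 having a change of -0.55 and Omp one of 0.17. Of 8 tooth germ genes none was called (median -0.069), and 5 changes were negative and 3 positive, with Lhx8 at 0.41. The most negative was that of Amelx, an enamel gene, at -4.06, although control replicate 3, at 0.880 FPKM, lay inside its mutant range. None of 10 muscle markers was called (median 0.85), Tnni1 having a change of 0.96 and Myod1 one of 1.06.

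Cartilage was the 1 list with calls. Like the other lists, it was chosen with earlier results of these data known. All 10 of its markers had negative changes, with a median of -1.18, and 6 were called lower. Over all tested genes 50.8% were negative and 0.203% were called lower. The 6 called were Matn1, Col2a1, Acan, Col9a1, Col9a3 and Col11a1, with log2 changes from -2.68 for Matn1 to -0.81 for Col11a1 (limma adjusted p from 0.0121 to 0.0450). That count was 0 without mutant replicate 1 or without control replicate 1, 2 or 3, and it was 3 without mutant replicate 2. The part of cartilage in the Dlx values was not tested. Pth1r itself measured 77.3, 78.4 and 69.7 FPKM in the mutant replicates and 75.2, 55.2 and 73.5 FPKM in the control replicates, and these values do not check the genotype labels, as the floxed part of the gene is not given.

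**Figure D5:**
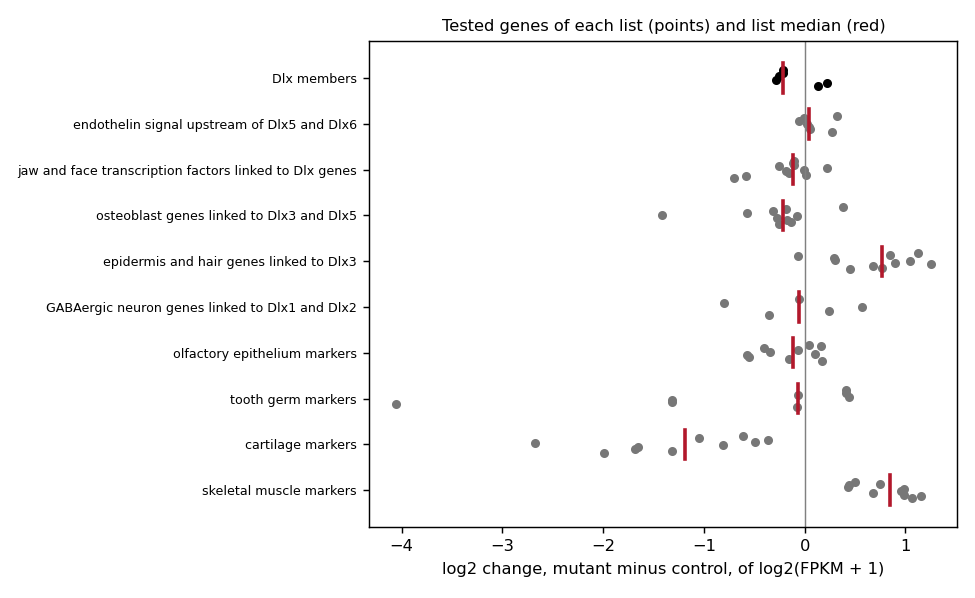
Log2 change, mutant minus control, of the tested genes of each list (points) with the list median (red bar); the 6 Dlx genes are in black at the top. The list medians run from -1.18 for cartilage to 0.85 for skeletal muscle, and the 6 Dlx genes lie on both sides of 0.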

How the data were processed

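Messenger RNA of 6 libraries was measured, 3 mutant and 3 control by the genotype label. Libraries were made from TRIzol RNA with a stranded kit, per the labels' protocols. Per the submitters' processing notes, Cuffdiff 2.2.1, TopHat2 2.1.1, SAMtools 0.1.18 and Bowtie2 2.2.8 were used with build mm10. The authors deposited FPKM values, 1 per gene symbol, per the file headers. Sources used here name no annotation, filter or scaling between libraries.

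Values were analysed as log2(FPKM + 1) for the 14766 genes whose mean reached 1 FPKM. The groups were compared with limma 3.58.1 (R 4.3.3) by lmFit and eBayes with trend, two-sided and without covariates. Benjamini-Hochberg adjusted p under 0.05, over all of these genes, was the threshold. FPKM is not a count, so no count test was used. On simulated data with 200 of 14766 genes changed, in 10 draws, the fit recovered 90.4% of 2-fold and 98.4% of 4-fold changes on the log2(FPKM + 1) scale, and 4.06% of calls were false. Noise was drawn independently for each gene, and no change as small as those of the Dlx members was simulated, so these rates do not cover them.

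Library sizes came from ratios of values under 0.15 FPKM between libraries, and the depth of control replicate 1 from the value of 1 fragment in 77 genes (quartiles 12500000 and 13300000 fragments). Gene positions and transcripts are from the GENCODE annotation of GRCm38, start site windows from RefSeq. Members and gene lists were chosen with earlier results of these data known. Named genes are the members, their antisense genes and tested neighbours, the called members of each list or otherwise the 2 of smallest p, and the 2 nearest profiles of each member; 2 genes that this rule names are not reported here. Alternatives were other pseudocounts, filters, scalings, models and weights, and each library left out. Sequences were handled with Biopython 1.88 and plots drawn with matplotlib 3.10.9.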

Additional observations from a re-analysis of the deposited data

How the results depend on the processing

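No Dlx member was called under any of 18 alternatives (limma adjusted p of at least 0.242). Dlx1, Dlx2, Dlx3 and Dlx6 kept their direction in all alternatives that tested them. Dlx4 and Dlx5 turned to 0.24 and 0.010 with sex as a covariate and in female libraries alone, both chosen after seeing the data. These settings both compare mutant replicate 1 alone with the controls, so their changes are equal by design. The cause of the turn was not tested. Leaving out each library in turn gave 0.060 to 0.28 for Dlx1, 0.054 to 0.43 for Dlx2, -0.38 to -0.21 for Dlx3, -0.50 to -0.028 for Dlx4, -0.33 to -0.13 for Dlx5 and -0.30 to -0.13 for Dlx6. Dlx6os1, at 0.010, was at -0.0091 with quantile normalization and from -0.17 to 0.27 with libraries left out. Over all genes 39 calls became 18 with no filter, 19 without trend, 71 with library weights, 10 with sex as a covariate and 15 to 44 with libraries left out, 15, 17, 18 and 23 being the counts without control replicate 2, control replicate 1, control replicate 3 and mutant replicate 1. Leaving out libraries gave 0 to 1 calls among jaw and face factors (Gsc, without mutant replicate 3), 0 to 2 among tooth genes (Amelx and Enam, without control replicate 3), 0 to 8 among cartilage markers and 0 in the other lists. No scaling moved the median change of all genes by over 0.1. No paired analysis was possible because the labels give no replicate numbers; numbers follow accession order. Depth limits Dlx1, Dlx2, Dlx4 and Dlx1as most.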
